A study of Mus musculus with 2 samples.

Results

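The unfolded protein response and the integrated stress response were followed here in *Gne*-KO myoblasts through 42 genes, taken by symbol from a list of ER chaperones, folding enzymes, degradation factors, stress sensors, ATF4-pathway regulators and amino acid synthesis enzymes. All 42 symbols were found among the 21829 genes with a value, and 40 of them averaged 1 FPKM or more (fragments per kilobase of transcript, scaled to sequencing depth) over the libraries. C2C12 is an immortalised mouse myoblast line. The WT library came from the unedited line, and the KO library from a line made from it by CRISPR–Cas9 editing of *Gne*, the enzyme that starts sialic acid synthesis, after which clones were grown from single cells. Whether more than a single clone was sequenced is not stated. Both were grown in DMEM with serum and gentamicin, and no stress treatment is named for either. There was 1 library per line, so no difference has a replicate check, no p-value can be given, and an effect of *Gne* and a difference between clones cannot be told apart.

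Proteins that enter the ER fold there with the help of chaperones and disulphide enzymes, and those that fail are sent to the cytosol for degradation. When unfolded proteins build up, the sensors Ire1 (*Ern1*), Atf6 and Perk (*Eif2ak3*) raise the transcription of these helpers, in part through spliced *Xbp1*. Perk and the amino acid sensor Gcn2 (*Eif2ak4*) also phosphorylate eIF2α, which lowers protein synthesis while favouring translation of *Atf4*, whose targets include genes of amino acid synthesis and of recovery from stress. In muscle precursors the clients of the ER include secreted matrix and membrane glycoproteins. The files hold gene-level RNA values, so splicing of *Xbp1*, cleavage of Atf6, phosphorylation of eIF2α and the amount of Atf4 protein were not measured.

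The WT values summed to 568543 FPKM and those of the KO-labelled library to 574253 FPKM, and the unit was inferred from the values. *Gne*, the edited gene, was at 6.67 FPKM in WT and 7.34 FPKM in the KO-labelled library, a log2 fold change of 0.12, so its RNA does not check the label. Fold changes are log2((KO + 1)/(WT + 1)), which understates the change of low genes. The middle 50% of the 10542 genes that averaged 1 FPKM or more lay between -0.21 and 0.23 on this scale, with a median of 0.0061. Read numbers are not given with the values. Low values move in steps set by single reads, and for 406 genes between 0.02 and 0.1 FPKM in each library the commonest KO to WT ratio was 1.13, which would mean a WT library deeper by that factor.

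Several members carry in their promoter the ER stress response element (ERSE), the site through which Atf6 and Xbp1, together with NF-Y, act on ER chaperone genes. The element was searched as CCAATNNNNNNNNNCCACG on both strands, in RefSeq promoters of the GRCm38.p6 build from 250 bases before to 50 bases after each start. A promoter was at hand for 38 members, all but *Manf*, *Hyou1*, *Derl1* and *Atf6*. Of these 38 members, 9 held the element (23.7%), against 37 of all 27025 genes with a promoter (0.137%). The sites found are shown in the direction of the element, with its fixed letters in capitals:
Hspa5: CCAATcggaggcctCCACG
Hsp90b1, far site: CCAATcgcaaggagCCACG
Hsp90b1, near site: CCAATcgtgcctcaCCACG
Calr: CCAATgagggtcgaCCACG
Canx: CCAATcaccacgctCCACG
Dnajc3: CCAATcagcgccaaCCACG
Creld2: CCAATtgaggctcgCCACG
Pdia6: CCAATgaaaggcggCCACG
Syvn1: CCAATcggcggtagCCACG
Derl3: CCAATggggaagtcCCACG

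The sites of *Calr*, *Creld2* and *Derl3* and the near site of *Hsp90b1* lay on the strand opposite to the gene. The site began 65 bases before the start in *Hspa5*, 212 and 107 bases before it in *Hsp90b1* and 162 bases before it in *Calr*. These 3 abundant chaperones include the highest and the lowest fold change of all members. Their whole promoters are given on the strand of the gene. Capitals mark the fixed letters of each exact match to the ERSE. Copies that differ from these letters were not searched and stay in lower case. *Hspa5* lies on the plus strand at chr2:34771840-34772139, *Hsp90b1* on the minus strand at chr10:86705395-86705694 and *Calr* on the minus strand at chr8:84846882-84847181, all in GRCm38.p6:
Hspa5: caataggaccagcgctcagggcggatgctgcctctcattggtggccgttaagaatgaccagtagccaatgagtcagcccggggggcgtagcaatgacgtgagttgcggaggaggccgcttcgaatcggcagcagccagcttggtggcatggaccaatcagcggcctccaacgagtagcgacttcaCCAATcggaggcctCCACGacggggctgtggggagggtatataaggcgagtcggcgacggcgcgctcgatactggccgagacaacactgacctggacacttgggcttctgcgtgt
Hsp90b1: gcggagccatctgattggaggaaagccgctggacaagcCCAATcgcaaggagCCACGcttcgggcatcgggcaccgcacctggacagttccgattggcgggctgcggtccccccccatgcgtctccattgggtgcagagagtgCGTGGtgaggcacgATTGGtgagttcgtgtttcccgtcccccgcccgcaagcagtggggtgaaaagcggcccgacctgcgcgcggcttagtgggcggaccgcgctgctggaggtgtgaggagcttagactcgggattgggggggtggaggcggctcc
Calr: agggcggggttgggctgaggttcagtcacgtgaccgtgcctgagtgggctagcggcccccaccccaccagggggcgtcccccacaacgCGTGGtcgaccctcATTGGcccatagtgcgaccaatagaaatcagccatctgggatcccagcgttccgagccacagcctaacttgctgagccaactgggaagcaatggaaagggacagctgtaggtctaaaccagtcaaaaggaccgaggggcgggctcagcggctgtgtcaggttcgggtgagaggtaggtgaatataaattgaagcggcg

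None of the 40 members past 1 FPKM differed by more than 2-fold between the libraries, in either direction. Of all 10542 genes, 2.84% were more than 2-fold higher in the KO-labelled library and 3.43% more than 2-fold lower. At a limit of 1.5-fold, *Hsp90b1* and *Sesn2* were higher and *Calr* was lower, which is 2 and 1 of 40 members, and the shares of all genes were 7.68% and 7.5%. With 1 added to each value *Dnajc3* fell just short of this limit, though its plain KO to WT ratio was 1.51. The median log2 fold change of the members was 0.048, with 22 members above 0 and 18 below. Their middle 50% ran from -0.098 to 0.27, and 22 of the 40 lay inside the middle 50% of all genes. The members together made up 0.79% of the summed FPKM in WT and 0.758% in the KO-labelled library. *Derl3* was listed at 0 in both libraries, and *Atf3*, an immediate stress transcription factor, was at 0.376 FPKM in WT and 0.364 FPKM in the KO-labelled library.

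**Figure D1:**
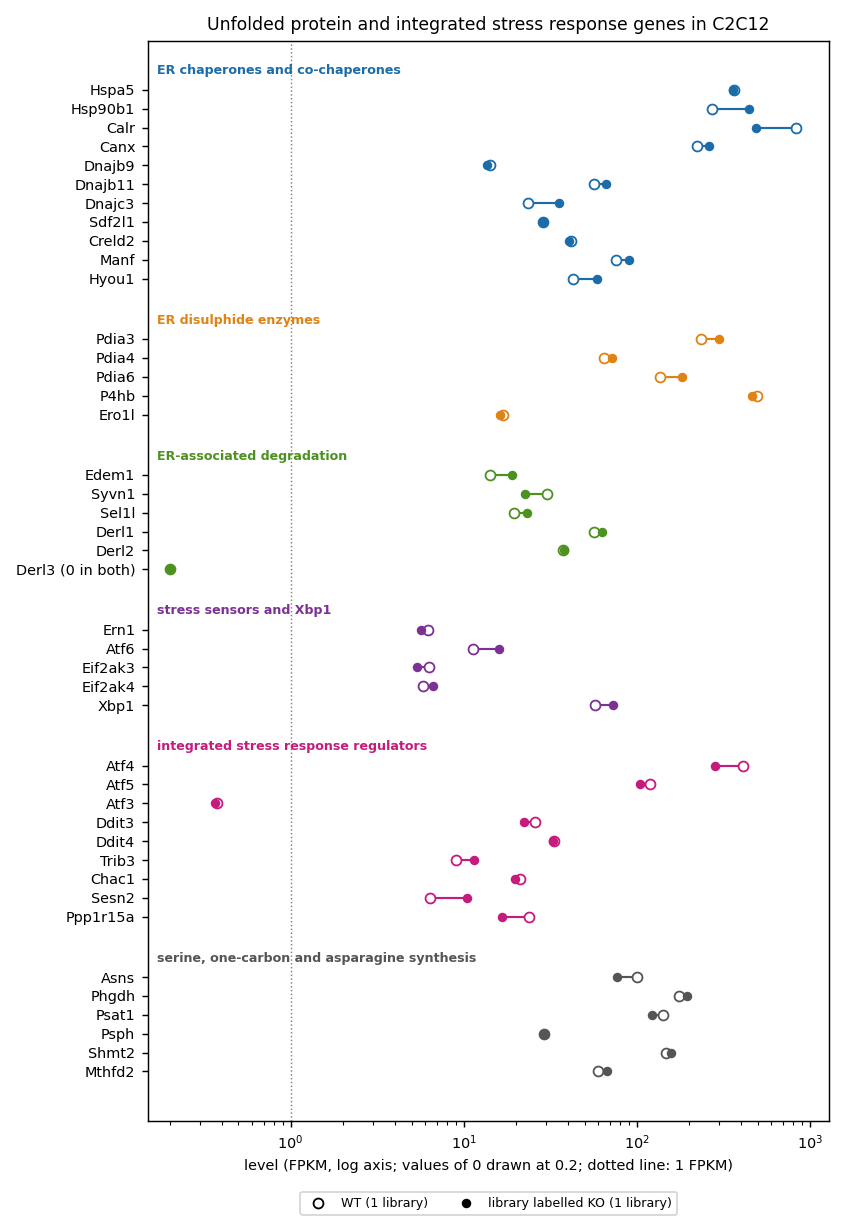
Level of each member in FPKM on a log axis, with open circles for WT and filled circles for the KO-labelled library, 1 library each, in 6 groups by role; values of 0 are drawn at 0.2. The circles of most genes lie close together, and *Calr*, *Atf4*, *Hsp90b1* and *Sesn2* show some of the widest gaps.

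The ER chaperones differed by unlike amounts. Of the 11 chaperones and co-chaperones, 7 were above 0 and 4 below, with a median log2 fold change of 0.22. Of the 4, *Hspa5*, *Creld2* and *Dnajb9* were close to 0 (-0.025, -0.034 and -0.059). The other, *Calr*, lies in a stretch of chromosome 8 whose genes were mostly lower, described below. With the median of genes within 5 Mb subtracted from each gene, the median of the 11 was 0.30. *Hspa5*, which encodes BiP, the main Hsp70 chaperone of the ER and the usual readout of the unfolded protein response, was at 367 FPKM in WT and 361 FPKM in the KO-labelled library, a log2 fold change of -0.025. *Hsp90b1*, which encodes Grp94, the Hsp90 of the ER and a chaperone of integrins, Toll-like receptors and IGFs, was at 274 FPKM in WT and 445 FPKM in the KO-labelled library. With a log2 fold change of 0.70 it stood highest among the 40 members. *Calr*, a calcium-binding lectin chaperone of glycoproteins, was at 837 FPKM in WT and 492 FPKM in the KO-labelled library, and its -0.77 stood lowest. The membrane-bound partner of calreticulin, *Canx*, had 225 and 261 FPKM in the same order. The ratio of *Calr* to *Canx* was therefore 3.72 in WT and 1.88 in the KO-labelled library, and that of *Hsp90b1* to *Hspa5* was 0.745 and 1.23. By level in FPKM, *Calr* ranked 1 and *P4hb* 2 of the 42 members in both libraries, while *Hsp90b1* ranked 5 in WT and 3 in the KO-labelled library.

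Among the other co-chaperones, *Dnajc3*, which encodes the BiP co-chaperone p58IPK, had 23.5 FPKM in WT and 35.5 FPKM in the KO-labelled library, a log2 fold change of 0.58. *Hyou1*, the large Hsp70-related partner of BiP, had 42.9 and 59.2 FPKM in the same order, a log2 fold change of 0.46. *Manf*, a secreted BiP-binding factor, and *Dnajb11*, a BiP co-chaperone that binds unfolded clients, were at 75.6 and 90.3 FPKM (0.25) and at 56.9 and 66.4 FPKM (0.22). These 4 were higher to different degrees. The other 3 were nearly equal in both libraries. *Sdf2l1* was at 28.7 and 28.8 FPKM, *Creld2* at 41.9 and 40.9 FPKM, and *Dnajb9*, an Xbp1 target that holds Ire1 in its resting state, at 14.2 and 13.6 FPKM, WT first in each case.

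The disulphide enzymes were slightly higher or nearly equal. *Pdia6*, which acts with BiP, was at 136 FPKM in WT and 183 FPKM in the KO-labelled library (log2 fold change 0.42). *Pdia3*, which works on glycoproteins held by calreticulin and calnexin, was at 235 and 299.8 FPKM (0.35), and *Pdia4* at 64.7 and 72.2 FPKM (0.16). *P4hb*, which encodes protein disulphide isomerase and is also the beta subunit of the collagen prolyl 4-hydroxylase, was at 493 FPKM in WT and 467 FPKM in the KO-labelled library. *Ero1l*, the oxidase that recharges these enzymes, was at 16.8 and 16.3 FPKM. None of the 5 passed 1.5-fold, and their median was 0.16.

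Of the 6 genes of ER-associated degradation, 5 were past 1 FPKM, and 4 of these were higher and 1 lower, though *Derl2* turned from 0.013 to -0.0013 on the log2 scale with both libraries scaled to the same total. *Edem1*, which acts in the degradation of misfolded glycoproteins, was at 14.2 FPKM in WT and 19.2 FPKM in the KO-labelled library (log2 fold change 0.41). The ubiquitin ligase gene *Syvn1* was at 30.2 and 22.7 FPKM (-0.40), whereas its adaptor *Sel1l* was at 19.6 and 23.2 FPKM (0.24). The derlins, channel-like proteins of the same complex, were at 57.0 and 63.2 FPKM for *Derl1* and 37.7 and 38.1 FPKM for *Derl2*. The 3 ER protein-handling groups together, with 21 genes past 1 FPKM, summed to 3091 FPKM in WT and 3099 FPKM in the KO-labelled library. These sums include *Calr*, the most abundant of them, at 837 and 492 FPKM. Of the 21 genes, 14 were above 0 and 7 below, with a median log2 fold change of 0.16. Of all 10542 genes, 5348 were above 0 and 5192 below.

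The sensor kinases had low values. *Ern1* was at 6.26 FPKM in WT and 5.66 FPKM in the KO-labelled library, *Eif2ak3* at 6.33 and 5.39 FPKM, and *Eif2ak4* at 5.85 and 6.62 FPKM. *Atf6*, a membrane-held transcription factor released by cleavage, was at 11.3 and 16.0 FPKM, a log2 fold change of 0.46. *Xbp1* was at 57.4 FPKM in WT and 72.9 FPKM in the KO-labelled library, a log2 fold change of 0.34. These values count all *Xbp1* RNA, spliced or not.

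The regulators of the integrated stress response were more often lower than higher, with 6 of the 8 genes past 1 FPKM below 0 and a median of -0.14. Of all 10542 genes, 5192 were below 0. Among the 6, *Ddit4* (-0.0079) and *Chac1* (-0.090) were close to 0. Less the median of genes within 5 Mb, the group median was -0.18. *Atf4* was at 413 FPKM in WT and 282 FPKM in the KO-labelled library, a log2 fold change of -0.55, and ranked 3 and 6 of the 42 members by level. The genes within 5 Mb of *Atf4* had a median of -0.38. *Ppp1r15a*, which encodes the Gadd34 subunit that lets phosphatase reverse eIF2α phosphorylation, was at 24.0 and 16.6 FPKM (-0.51). *Atf5*, a factor close to Atf4, was at 119 and 104 FPKM (-0.19), and *Ddit3*, which encodes the stress factor Chop, at 25.9 and 22.4 FPKM (-0.20). All 4 were lower, by less than 1.5-fold each. The members that went the other way were *Sesn2*, an inhibitor of mTORC1 that senses leucine, at 6.42 FPKM in WT and 10.5 FPKM in the KO-labelled library (0.63), and *Trib3*, a pseudokinase that dampens Atf4 and Akt, at 8.99 and 11.5 FPKM (0.32). *Chac1*, a glutathione-degrading enzyme strongly induced through Atf4, was at 21.2 and 19.8 FPKM, and *Ddit4*, another inhibitor of mTORC1, at 33.1 and 32.9 FPKM. Genes induced by the same factor thus lay on both sides of 0.

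The amino acid enzymes downstream of Atf4 were split. *Asns*, which makes asparagine, was at 99.9 FPKM in WT and 77.1 FPKM in the KO-labelled library, a log2 fold change of -0.37. In the serine pathway, *Phgdh*, its entry enzyme, was at 177 and 194 FPKM (0.14), *Psat1* at 142 and 123 FPKM (-0.21) and *Psph* at 29.0 FPKM in both. The mitochondrial folate enzymes *Shmt2* and *Mthfd2* were at 148 and 157 FPKM (0.083) and at 60.0 and 67.4 FPKM (0.16). The core of the element bound by Atf4 and C/EBP factors, TGATGNAA, was found on either strand in the promoters of *Asns*, *Atf3*, *Chac1* and *Trib3*, 4 of 38 members (10.5%), against 4.51% of all genes with a promoter. Those 4 genes had log2 fold changes of -0.37, -0.013, -0.090 and 0.32.

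The members with an ERSE lay on both sides of 0 as well. Of the 9, 8 were past 1 FPKM, and 4 of these were higher in the KO-labelled library and 4 lower, with a median of 0.095. *Hsp90b1*, *Dnajc3*, *Pdia6* and *Canx* were higher, and *Hspa5*, *Creld2*, *Syvn1* and *Calr* were lower. Of the lower ones, *Hspa5* (-0.025) and *Creld2* (-0.034) were close to 0. Less the median of genes within 5 Mb, *Hspa5*, *Creld2* and *Calr* were at 0.074, 0.30 and 0.70, and *Syvn1* at -0.32. The 4 higher ones stayed above 0 after that subtraction. The 28 members past 1 FPKM with a promoter but no exact match to the ERSE had a median of 0.0010, with 14 above 0 and 14 below. Over all 14 genes with an ERSE and past 1 FPKM, 0 passed 2-fold in either direction, and 4 were above 0 and 10 below with a median of -0.12. The CCAAT end of the ERSE is itself the site of NF-Y. *Dnajb11* held the related ERSE-II, searched as ATTGGNCCACG on both strands, which shares the CCACG end and was in 0.0444% of genes, and 0 members held the Xbp1 site TGACGTGG on either strand, found in 0.714%. A match describes letters in a 300-base window and not binding.

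**Figure D2:**
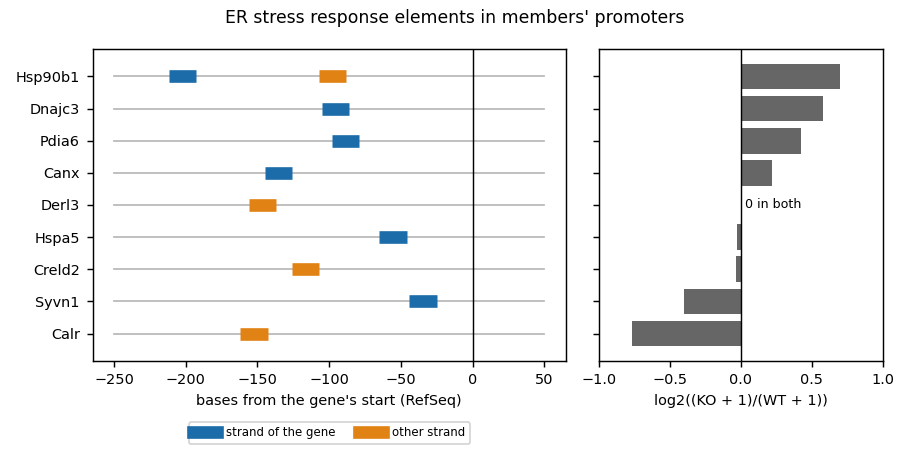
Left, position of each ERSE in bases from the RefSeq start of the 9 members that hold one, in blue on the strand of the gene and in orange on the other; right, log2((KO + 1)/(WT + 1)) of the same gene, 1 library each. The bars run from 0.70 for *Hsp90b1* to -0.77 for *Calr*, and *Derl3* is listed at 0 in both libraries.

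Some members lie in stretches of chromosomes whose genes differed together between the libraries, and their values were set beside those of genes within 5 Mb on either side. *Calr* lies on chromosome 8 in a stretch from *Lsm6* to *Got2*, in which 115 of 119 genes past 1 FPKM were lower and the median log2 fold change was -1.29. The 68 genes within 5 Mb of *Calr* had a median of -1.46, so *Calr* at -0.77 was 0.70 above its neighbours, and its direction turned when their median was taken away. *Hsp90b1* lies on chromosome 10 among 49 genes with a median of 0.34, and 0.36 was left for it. *Hyou1*, on chromosome 9 among genes with a median of 0.42, kept 0.040. *Atf4*, on chromosome 15 among 153 genes with a median of -0.38, kept -0.17. By contrast, *Sesn2* kept 0.75 and *Ppp1r15a* -0.51, since the medians around them were -0.12 and 0.0031. After subtraction, 2 of the 40 members, *Sesn2* and *Calr*, were more than 1.5-fold above their neighbours and 0 were as far below, against 6.58% and 5.77% of all genes with at least 5 neighbours. Other members moved further from 0. *Sel1l* went from 0.24 to 0.50, *Derl1* from 0.15 to 0.43 and *Ddit3* from -0.20 to -0.38. Members more than 0.2 from 0 on the log2 scale numbered 21 before subtraction and 26 after it, while the share of all genes was 53.5% before and 49.3% after. Over the 40 members Pearson's r between a gene and its neighbours was 0.46 and Spearman's rho 0.076, given as a description over genes of the same libraries. No DNA was measured, and the part of these stretches in the values of the members was not tested.

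**Figure D3:**
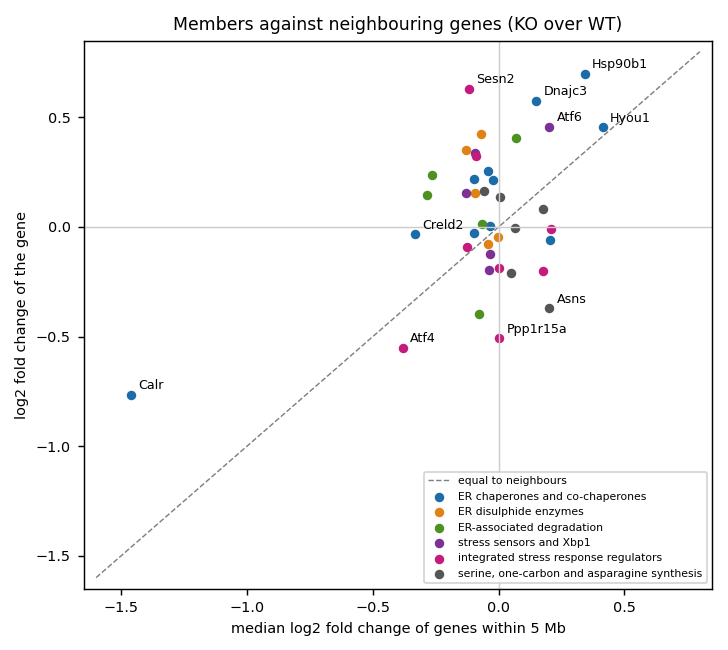
Log2 fold change of each of the 40 members (vertical) against the median of genes within 5 Mb (horizontal), coloured by role, with the dashed line where both are equal. *Calr* is alone at the far left, above the line, while *Atf4*, *Hsp90b1* and *Hyou1* lie toward the ends of the cloud near or above it.

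Other genes of the same pathways were described from lists that hold no member. For comparison, 5348 of all 10542 genes were above 0, with a median of 0.0061. More than 2-fold higher were 2.84% of all genes, and more than 2-fold lower 3.43%. Of 47 further ER folding, translocation and degradation genes, all past 1 FPKM, 0 were more than 2-fold higher and 1 lower, and 37 were above 0 with a median of 0.21. The lower gene was *Herpud1*, a short-lived degradation factor strongly induced by ER stress, at 86.5 FPKM in WT and 31.2 FPKM in the KO-labelled library, a log2 fold change of -1.45. *Herpud1* lies in the same stretch of chromosome 8 as *Calr*, and -0.47 was left once the median of nearby genes was taken away. Of 51 further integrated stress response and Atf4 target genes, 46 were past 1 FPKM, with 1 more than 2-fold higher, 2 lower and a median of -0.069. *Cth*, which makes cysteine from cystathionine, was at 1.32 FPKM in WT and 4.45 FPKM in the KO-labelled library (log2 fold change 1.23). *Gpt2*, a mitochondrial alanine transaminase, was at 29.1 and 9.68 FPKM (-1.49) and lies in the chromosome 8 stretch, where -0.045 was left for it. *Ndrg1*, a stress-responsive gene also induced by hypoxia, was at 64.4 and 24.8 FPKM (-1.34) and kept -1.23. The partners of Atf4, *Cebpb* and *Cebpg*, were at 54.9 and 40.7 FPKM (-0.42) and at 14.1 and 10.5 FPKM (-0.39), and *Slc7a11*, the cystine transporter, was at 1.22 and 1.46 FPKM.

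**Figure D4:**
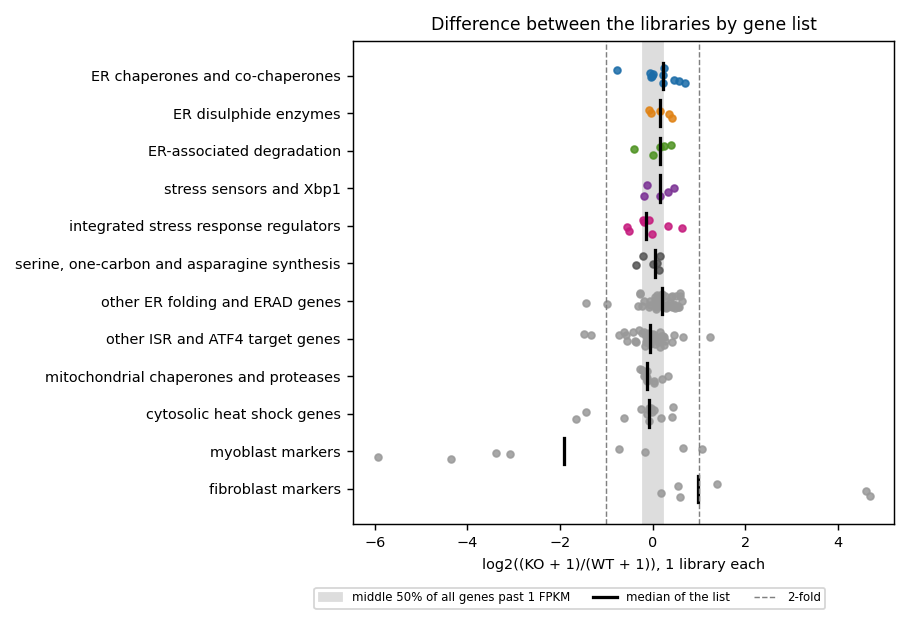
Log2((KO + 1)/(WT + 1)) of every gene past 1 FPKM, 1 library each, for the 6 role groups of the members (coloured) and 6 other lists (grey), with black bars for list medians, a grey band for the middle 50% of all genes and dashed lines at 2-fold. No coloured point passes a dashed line, whereas the myoblast and fibroblast markers reach far beyond them.

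Cell identity markers differed between the libraries by larger amounts than the stress response genes. Of 10 myoblast markers 8 were past 1 FPKM, with 4 more than 2-fold lower and 1 higher, and their summed level was 293 FPKM in WT and 118 FPKM in the KO-labelled library. *Myod1*, the myogenic master regulator, was at 59.97 FPKM in WT and listed at 0 in the KO-labelled library. Also more than 2-fold lower were *Des*, *Cdh15* and *Chrna1*, with log2 fold changes of -4.35, -3.37 and -3.09. The higher marker was *Myf5*, at 9.14 FPKM in WT and 20.3 FPKM in the KO-labelled library (1.07). Within 2-fold lay *Vcam1* (0.66), *Ncam1* (-0.17) and *Itga7* (-0.72). *Pax7* was listed at 0 in both libraries. Of 10 fibroblast markers 6 were past 1 FPKM, with 3 more than 2-fold higher and 0 lower, and their summed level was 660 FPKM in WT and 1542 FPKM in the KO-labelled library. Those past 2-fold were *Col1a1*, *Postn* and *Col1a2*, with log2 fold changes of 4.69, 4.60 and 1.38. *Thy1*, *Lum* and *Tcf21* were listed at 0 in both libraries. The endothelial and leukocyte lists held 1 gene past 1 FPKM, *Cd68*, and *Ptprc*, *Cdh5* and *Kdr* were listed at 0 in both. In bulk RNA, fewer cells of a type and less RNA per cell cannot be told apart, and the part of these marker differences in the values of the stress response genes was not tested.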

How the data were processed

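RNA of 1 WT and 1 *Gne*-KO C2C12 library was analysed. The values the authors deposited by gene symbol carry no unit and were taken as FPKM, from column totals that differ and from steps between low values. The methods name TrimGalore, STAR, GRCm39 and RSEM 1.3.3 with expected counts and TPM as its output, so a table of TPM limited to these genes is also possible. They do not tie a tool to these values, and the submitters' processing notes name Trim Galore 0.6.6, STAR 2.7.9a and GRCm38. The kit and read length also differ between these sources. Read numbers are unknown, so no counting interval is given.

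Of 21853 rows, 24 were second entries of a symbol and the lower entry was dropped, which for *Ddit3* was at 0 in both libraries. Fold changes were log2((KO + 1)/(WT + 1)) for genes that averaged 1 FPKM or more, and a difference counted beyond 2-fold. Every member could be named. Genes of other lists were named if past 2-fold or if a known regulator, and any other gene was chosen with its values known. Members and lists were chosen with earlier results of these data known. Symbols, gene order (21264 symbols matched) and promoters came from RefSeq tables for GRCm38.p6. Python 3.11.15, numpy 2.4.6, pandas 2.3.3 and scipy 1.17.1 were used.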

Additional observations from a re-analysis of the deposited data

How the results depend on the processing

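With 1 library per line, leaving out a replicate was not possible. No paired analysis was possible because the groups share 1 replicate number and the result comes from no test. The alternatives were scaling by the median of ratios or to the same total, a pseudocount of 0.1 or of 5, keeping all genes, keeping genes that averaged 5 FPKM, subtraction of the median of genes within 5 Mb, leaving out the chromosome 8 stretch and a limit of 1.5-fold. The counts of 0 members higher and 0 lower than 2-fold held under each of these except the 1.5-fold limit, which gave 2 and 1. The median of the members ranged from 0.0089 with all genes kept to 0.10 after subtraction of neighbours. Of 40 members, 33 kept their sign in every alternative run on single genes. The direction of *Calr* turned, from -0.77 to 0.70, when the median of its neighbours was subtracted, and the other 6 that changed sign, *Hspa5*, *Creld2*, *Chac1*, *Derl2*, *Sdf2l1* and *Shmt2*, were within 0.1 of 0 in the values as reported, though *Creld2* reached 0.30 after that subtraction. Medians were taken as moved outside their 95% order-statistic interval, which for lists of 5 or 6 genes spans nearly all members, so that none moving says little for them.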

Other observations

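Chaperones outside the ER were described in the same way. Of 12 mitochondrial chaperones and proteases, all past 1 FPKM, 0 passed 2-fold, and the median log2 fold change was -0.12. *Hspd1*, which encodes the mitochondrial Hsp60, was at 453 FPKM in WT and 463 FPKM in the KO-labelled library. Of 15 cytosolic heat shock genes, 14 were past 1 FPKM, with 0 more than 2-fold higher, 2 lower and a median of -0.074. *Hspb1*, a small heat shock protein, was at 128 and 39.9 FPKM, a log2 fold change of -1.66, and kept -1.55 relative to genes within 5 Mb. *Dnajb1*, a co-chaperone of cytosolic Hsp70, was at 93.2 and 33.6 FPKM (-1.45) and lies in the chromosome 8 stretch, where -0.042 was left for it. *Hsf1*, the transcription factor of the heat shock response, was at 53.7 and 34.6 FPKM, a log2 fold change of -0.62. The genes within 5 Mb of *Hsf1* had a median of -0.39, and -0.22 was left for it.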
